A study of Arabidopsis thaliana with 4 samples.

Results

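The genes described are 57 loci that encode proteins of the cytosolic ribosome of Arabidopsis thaliana, 27 of the small subunit and 30 of the large subunit, out of 25665 loci with a probe on the array. They were taken by a list of locus identifiers that sets no threshold on their values, and cover 22 protein families, 11 in each subunit. Their transcript levels were compared between shoot apices of the ron3 mutant and of the control accession Ler on 4 two-colour Agilent arrays, named a to d after the replicate letters. Plants of both genotypes were grown in vitro, under the condition labelled LD, to growth stage 1.02. The labels name neither the ron3 allele nor the number of plants behind an RNA sample, nor whether Ler differs from ron3 at other loci. The ron3 RNA carried Cy5 on arrays a and c and Cy3 on arrays b and d, with Ler in the other dye. The labels speak of dye swaps with biological replicates but not of which arrays share an extract, so part of the spread between arrays may be technical. The limma p-values of the reported fit rest on the spread left after a dye effect was fitted. An SD printed with a ratio is over all 4 arrays and still holds the dye effect. A whole apex was sampled, and a change in the share of a cell type cannot be told apart from a change in RNA per cell.

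The cytosolic ribosome translates the messenger RNAs transcribed from nuclear genes. Its small subunit decodes the message, and its large subunit forms the peptide bonds. In Arabidopsis each ribosomal protein is encoded by a small family of paralogous genes whose products are alike or identical, and the subunits are assembled in the nucleolus. Mutants in several of these genes have narrow, pointed leaves and slow growth. The pointed first leaf gene PFL and the PGY genes, which alter leaf polarity together with other mutations, are of this kind. The plastid has a ribosome of its own, made in part of proteins that are encoded in the nucleus.

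AT5G45775, an L11 gene, had 2 probes, of which 1 was well above background on 0 arrays in either genotype and was not used. Of the 57 loci, 56 could be tested, and the probe used for each was well above background in both genotypes on all 4 arrays. The exception was AT3G51190, an L8 gene, which was well above background on 0 arrays in either genotype. Median spot signals ranged from 129.5 to 164 in Cy3 and from 148 to 222 in Cy5, with 0 saturated gene spots. Precision is limited by the number of arrays. SICKLE (AT4G24500, symbol SIC), which general knowledge gives as the gene mutated in ron3, had log2 ratios of ron3 over Ler of −2.31, −2.27, −2.21 and −2.41 on arrays a to d. Its fitted ratio was −2.30 ± 0.08 (SD, n = 4), a 4.92-fold lower signal in ron3 (limma adjusted p = 0.000148). Of 8 shoot apex markers, 6 were tested and were well above background in both genotypes on all 4 arrays. The meristem genes STM and KNAT1 were higher in ron3, with log2 ratios of 0.40 ± 0.12 and 0.33 ± 0.10, and the organ growth gene ANT was lower, with −0.83 ± 0.12 (SD, n = 4 each). CUC2, KNAT2 and CLV1 were also lower, with −0.27, −0.19 and −0.15. The count of shoot apex falls (limma, adjusted p under 0.05) was 4, beside 32.8% of all genes lower. It was 2 without array a and 2 without array d, beside 24.4% and 30.9% of all genes lower in those fits. The stem cell regulators WUS and CLV3 did not pass the filter on dim probes.

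Cytosolic ribosomal protein transcripts were more abundant in ron3, mostly by a small amount, or did not pass the test. Of the 56 genes tested, 28 were higher in ron3 and 0 were lower (limma, adjusted p under 0.05). At an unadjusted p under 0.05, 31 were higher and 2 were lower, both of them L12 genes, beside 7463 higher and 6620 lower of all 19246 genes tested. At the adjusted threshold, 37.0% of all genes were higher, 32.8% were lower and 69.8% changed in either direction. The share of ribosomal protein genes that changed, 28 of 56, was thus below that of all genes, and every change was a rise. The changes were small. Called rises ran from 0.15 to 1.04 on the log2 scale, with a median of 0.27, and 1 of the 56 genes was both called and at least 2-fold different, beside 8.06% of all genes. The median log2 ratio of the 56 genes was 0.16, beside 0.02 over all genes tested, for which the middle 50% ran from −0.25 to 0.31.

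Leaving out array a lowered the count of rises to 15 of 56, a smaller share than the 27.8% of all genes called higher in that fit. In it 1 gene (AT5G60670) was called lower, beside 24.4% of all genes. A median centring of each array in place of the loess normalisation gave 17 rises. That share of the 56 was also below the 35.8% of all genes called higher. In the fit with all arrays, the adjusted p-values of the 28 rises lay between 0.000457 and 0.0315. Which arrays share an extract is not known. Averaging arrays a with d and b with c, as if each pair were a dye swap of the same extracts, gave 23 rises, beside 34.0% of all genes. The calls of PFL (S18), RPS5A (S5), EMB3010 (S6), AT5G16130 (S7) and AT4G18730 (L11) were lost there, with adjusted p-values of 0.0585, 0.0682, 0.0519, 0.0607 and 0.058. Averaging a with b and c with d gave 31 rises, beside 37.2% of all genes higher. It also gave 2 falls (AT2G37190 and AT5G60670), beside 32.7% of all genes lower. The 28 genes that did not pass in the reported fit had ratios between −0.18 and 0.18, 22 above 0 and 6 below.

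**Figure D1:**
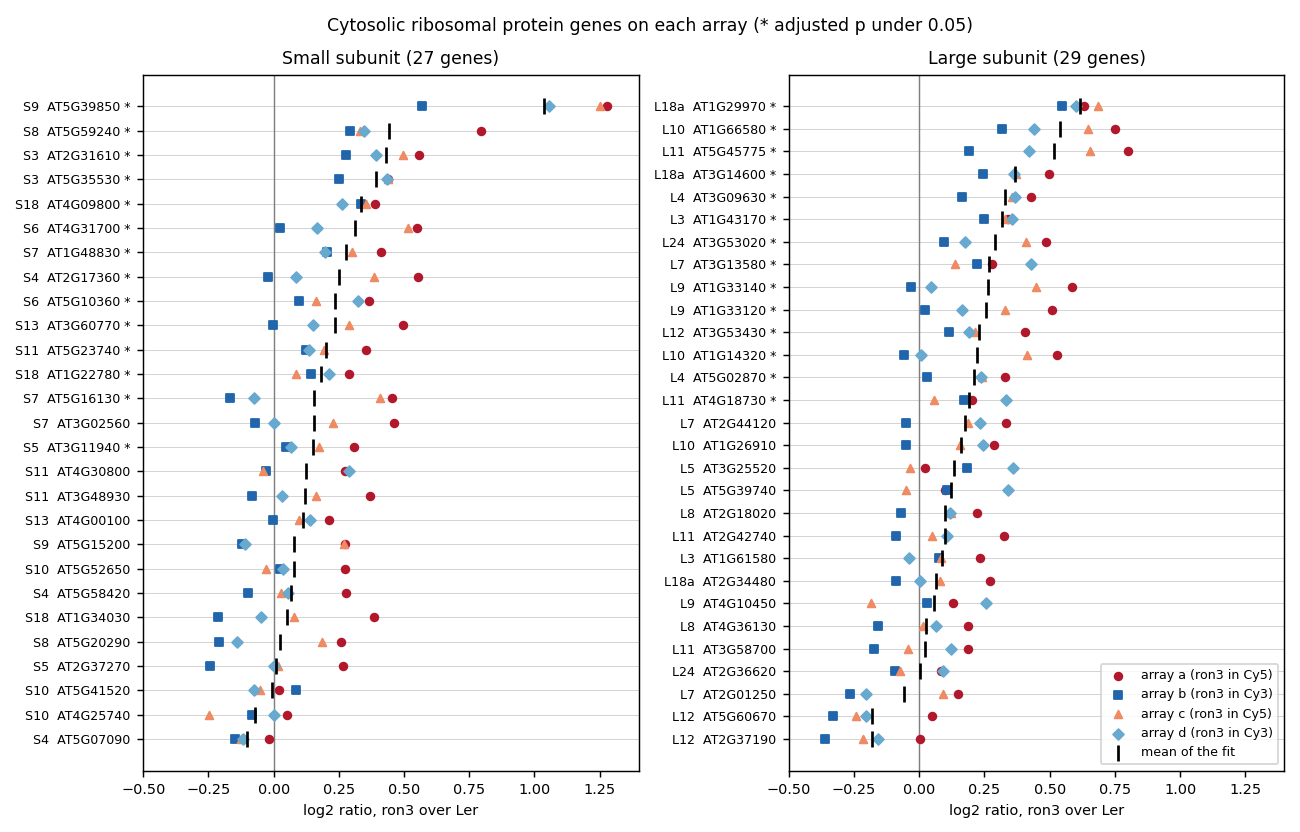
The log2 ratio of ron3 over Ler (horizontal axis) of each tested cytosolic ribosomal protein gene is shown on each of the 4 arrays, with the small subunit left and the large subunit right. Symbols are single arrays, black bars are the fitted ratio, and an asterisk marks an adjusted p under 0.05. Among the genes with an asterisk, 23 lie above 0 on all 4 arrays, and arrays a and c lie to the right of arrays b and d for most genes.

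In the small subunit, 14 of 27 genes were higher in ron3 and 0 were lower (limma; 15 and 0 at an unadjusted p under 0.05), with a median log2 ratio of 0.15. The gene that rose most was AT5G39850, which encodes S9, a protein near the path by which messenger RNA enters the subunit. Its log2 ratios were 1.28, 0.57, 1.25 and 1.05 on arrays a to d. All arrays lay above 0, with array b lowest. The fitted ratio was 1.04 ± 0.33 (SD, n = 4), a 2.05-fold rise (limma adjusted p = 0.00089). AT5G59240, an S8 gene, had log2 ratios of 0.79, 0.29, 0.33 and 0.35. Array a stood far above the other arrays for this gene. The fitted rise was 0.44 ± 0.24 (SD, n = 4), with a limma adjusted p of 0.00992. On the scanner software's own log ratio the adjusted p was 0.0595, and with the values of the authors' table it was 0.0596. Both S3 genes rose. S3 sits at the messenger RNA entry site and is also known as a DNA repair protein in animals. AT2G31610 had log2 ratios of 0.56, 0.28, 0.50 and 0.39, with a fitted rise of 0.43 ± 0.12 (SD, n = 4) and a limma adjusted p of 0.00123. AT5G35530 had log2 ratios of 0.44, 0.25, 0.44 and 0.43 and a fitted rise of 0.39 ± 0.09 (SD, n = 4).

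The S6 genes encode the substrate of the S6 kinases, which act downstream of the growth regulator TOR. Both rose in ron3. RPS6 (AT4G31700) had log2 ratios of 0.55, 0.02, 0.52 and 0.17 on arrays a to d. It was high on the arrays with ron3 in Cy5 and close to 0 on array b. The fitted rise was 0.31 ± 0.26 (SD, n = 4; limma adjusted p = 0.00334). EMB3010 (AT5G10360) had log2 ratios of 0.37, 0.10, 0.16 and 0.32 and a fitted rise of 0.24 ± 0.13 (SD, n = 4; limma adjusted p = 0.0254). Its adjusted p was 0.127 without array a and 0.0625 without array d.

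S18 and S13 are the proteins affected in the pointed first leaf mutants. PFL (AT1G22780), an S18 gene, had log2 ratios of 0.29, 0.14, 0.09 and 0.21, all above 0, and a fitted rise of 0.18 ± 0.09 (SD, n = 4; limma adjusted p = 0.0294). That call was lost without array a (adjusted p = 0.155) and without array d (adjusted p = 0.0764). Its paralogue RPS18C (AT4G09800) was steadier across arrays, with log2 ratios of 0.39, 0.33, 0.35 and 0.26 and a fitted rise of 0.33 ± 0.05 (SD, n = 4; limma adjusted p = 0.00191). RPS13A (AT4G00100), known as PFL2, did not pass the test. Its log2 ratios were 0.21, 0.00, 0.10 and 0.14, with a fitted value of 0.11 ± 0.09 (SD, n = 4; limma adjusted p = 0.092).

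S5 lies near the exit of messenger RNA from the subunit, and RPS5A is known for strong expression in dividing cells. RPS5A (AT3G11940) had log2 ratios of 0.31, 0.05, 0.17 and 0.07 and a fitted rise of 0.15 ± 0.12 (SD, n = 4; limma adjusted p = 0.0315), the smallest called. Without any 1 of the arrays it did not pass, with adjusted p-values of 0.185, 0.0611, 0.0737 and 0.0731 without arrays a to d in turn. RPS5B (AT2G37270) had log2 ratios of 0.27, −0.24, 0.02 and 0.00, on both sides of 0, and a fitted value of 0.01 ± 0.21 (SD, n = 4; limma adjusted p = 0.909). The other small subunit genes that rose encode S4, S7, S11 and S13, with fitted ratios between 0.15 and 0.28. All 3 genes of S10, a protein at the head of the subunit, missed the threshold, with values between −0.07 and 0.08.

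In the large subunit, 14 of 29 genes were higher in ron3 and 0 were lower (limma; 16 and 2 at an unadjusted p under 0.05), with a median log2 ratio of 0.18. RPL18AA (AT1G29970), of the L18a family, rose most and varied little. Its log2 ratios, from array a to array d, were 0.63, 0.55, 0.68 and 0.60. Its fitted rise of 0.62 ± 0.06 (SD, n = 4) was 1.53-fold (limma adjusted p = 0.000457). SAG24 (AT1G66580), an L10 gene whose symbol stands for senescence-associated gene, had log2 ratios of 0.75, 0.32, 0.65 and 0.44. All arrays were above 0, the Cy5 arrays of ron3 highest, and the fitted rise was 0.54 ± 0.20 (SD, n = 4; limma adjusted p = 0.000826). AT5G45775, an L11 gene, had log2 ratios of 0.80, 0.19, 0.65 and 0.42 and a fitted rise of 0.52 ± 0.27 (SD, n = 4; limma adjusted p = 0.00182). L11 forms, with L5 and the smallest ribosomal RNA, a particle that joins the large subunit during assembly.

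The L5 genes did not pass the test, and their arrays were ordered differently from most other members. ATL5 (AT3G25520), known from leaf mutants as PGY3 and OLI5, had log2 ratios of 0.02, 0.18, −0.04 and 0.36, highest on the arrays with ron3 in Cy3. Its fitted value was 0.13 ± 0.18 (SD, n = 4; limma adjusted p = 0.0606), and without array b the adjusted p was 0.0292. RPL5B (AT5G39740), known as OLI7, had log2 ratios of 0.10, 0.11, −0.05 and 0.34 and a fitted value of 0.12 ± 0.16 (SD, n = 4; limma adjusted p = 0.123). Without array b its adjusted p was 0.0426.

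L9 is the protein of PGY2 (AT1G33140), which had log2 ratios of 0.59, −0.03, 0.45 and 0.04. The gene was high only on arrays a and c, where ron3 carried Cy5. Its fitted rise was 0.26 ± 0.30 (SD, n = 4; limma adjusted p = 0.00636), and without the dye effect in the model the adjusted p was 0.0815. SAC52 (AT1G14320), the L10 gene in which a mutation suppresses the dwarf mutant acaulis5, had log2 ratios of 0.53, −0.06, 0.41 and 0.00. The same arrays were high, and the mean of arrays b and d was −0.03. Its fitted rise was 0.22 ± 0.29 (SD, n = 4; limma adjusted p = 0.009), with an adjusted p of 0.0696 without array a and 0.119 without the dye effect. STV1 (AT3G53020), the L24 gene named for its short gynoecium valves and needed for translation of auxin response factors, had log2 ratios of 0.49, 0.09, 0.41 and 0.17. All arrays lay above 0, and the fitted rise was 0.29 ± 0.19 (SD, n = 4; limma adjusted p = 0.00339).

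L3 and L4 lie close to the site of peptide bond formation and to the tunnel through which the peptide leaves. RP1 (AT1G43170), an L3 gene, was even across arrays, with log2 ratios of 0.34, 0.25, 0.33 and 0.36 and a fitted rise of 0.32 ± 0.05 (SD, n = 4; limma adjusted p = 0.00252). Both L4 genes rose. AT3G09630 had log2 ratios of 0.43, 0.16, 0.36 and 0.37 and a fitted rise of 0.33 ± 0.12 (SD, n = 4; limma adjusted p = 0.00474). AT5G02870 had log2 ratios of 0.33, 0.03, 0.24 and 0.24 and a fitted rise of 0.21 ± 0.13 (SD, n = 4; limma adjusted p = 0.0211). The latter call was lost without array a (adjusted p = 0.116) and without array c (adjusted p = 0.0744). The other large subunit genes that rose, of L7, L9, L11, L12 and L18a, had fitted ratios between 0.19 and 0.37.

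The most negative ratios were those of a pair of L12 genes. L12 sits at the base of the stalk, where translation factors dock. AT2G37190 had log2 ratios of 0.00, −0.36, −0.22 and −0.16 and a fitted value of −0.18 ± 0.15 (SD, n = 4; limma adjusted p = 0.0505). AT5G60670 had log2 ratios of 0.05, −0.33, −0.24 and −0.20 and a fitted value of −0.18 ± 0.16 (SD, n = 4; limma adjusted p = 0.0574). Both lay just outside the threshold, below 0 on arrays b to d. Without array a, AT5G60670 passed as lower (adjusted p = 0.0442), and without array d AT2G37190 did (adjusted p = 0.0332). The remaining L12 gene, AT3G53430, had log2 ratios of 0.40, 0.11, 0.21 and 0.19 and a fitted rise of 0.23 ± 0.12 (SD, n = 4; limma adjusted p = 0.0135), which did not pass without array a (adjusted p = 0.0805).

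The medians of the subunits were close, 0.15 for the small and 0.18 for the large subunit, a difference of −0.02 in the fit. By array, the small subunit median was 0.37, −0.0016, 0.18 and 0.08 on arrays a to d, and the large subunit median was 0.29, 0.03, 0.14 and 0.19. The small subunit was higher by 0.08 on array a and by 0.05 on array c. It was lower on array b, by a difference of −0.03, and on array d, by −0.11. The order of the subunits thus went with the dye, and the difference was smaller than its SD of 0.08 over the arrays.

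In many families some paralogues of a protein were called and others were not. Of the 22 families, 3 had all their tested members called higher (S3, S6 and L4), 3 had none (S10, L5 and L8), and 16 had some called and some not. These counts cover the 57 loci, and a family may have further genes. The test of a difference between paralogues was a two-sided exact sign-flip permutation test over the 4 arrays, which has 16 sign patterns and cannot go below p = 0.125. Of 47 pairs, 27 (57.4%) had the same order on all 4 arrays, each with that smallest p and an adjusted p of 0.218 over the pairs. None can pass a threshold of 0.05, and a call in 1 paralogue and not in another does not show that they differ. The share of pairs in the same order among other genes was not computed, so the 57.4% has no background beside it. The median size of the difference was 0.15.

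The largest difference was in S9. AT5G15200 had log2 ratios of 0.27, −0.12, 0.27 and −0.11 and a fitted value of 0.08 ± 0.22 (SD, n = 4; limma adjusted p = 0.116), whereas AT5G39850 rose 2.05-fold. The ratio of AT5G15200 minus that of AT5G39850 was −1.003, −0.69, −0.98 and −1.16 on arrays a to d, a mean of −0.96 ± 0.20 (SD, n = 4; exact permutation p = 0.125). The groups of array values did not overlap between these genes. In L18a, RPL18AA stood above both paralogues. AT3G14600 had log2 ratios of 0.50, 0.24, 0.37 and 0.36 and a fitted rise of 0.37 ± 0.10 (SD, n = 4; limma adjusted p = 0.00246), whereas AT2G34480 had 0.27, −0.09, 0.08 and 0.00 and a fitted value of 0.07 ± 0.15 (SD, n = 4; limma adjusted p = 0.294). RPL18AA minus AT2G34480 came to 0.36, 0.63, 0.60 and 0.60, a mean of 0.55 ± 0.13 (SD, n = 4; exact permutation p = 0.125). These were the 2 pairs with a mean difference over 0.5.

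Pairs in L12 differed by nearly the same amount on every array. AT3G53430 exceeded AT5G60670 by 0.41 ± 0.05 (SD, n = 4; exact permutation p = 0.125), and AT2G37190 minus AT3G53430 was −0.41 ± 0.05 (SD, n = 4; exact permutation p = 0.125). By contrast the L5 genes, with 0.13 and 0.12, and the S3 genes, with 0.43 and 0.39, had fitted ratios close to each other. The probes' matches to paralogous transcripts were not examined, so a probe may report more than its own gene, and differences between paralogues are uncertain to that degree. Levels of different probes were not compared.

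**Figure D2:**
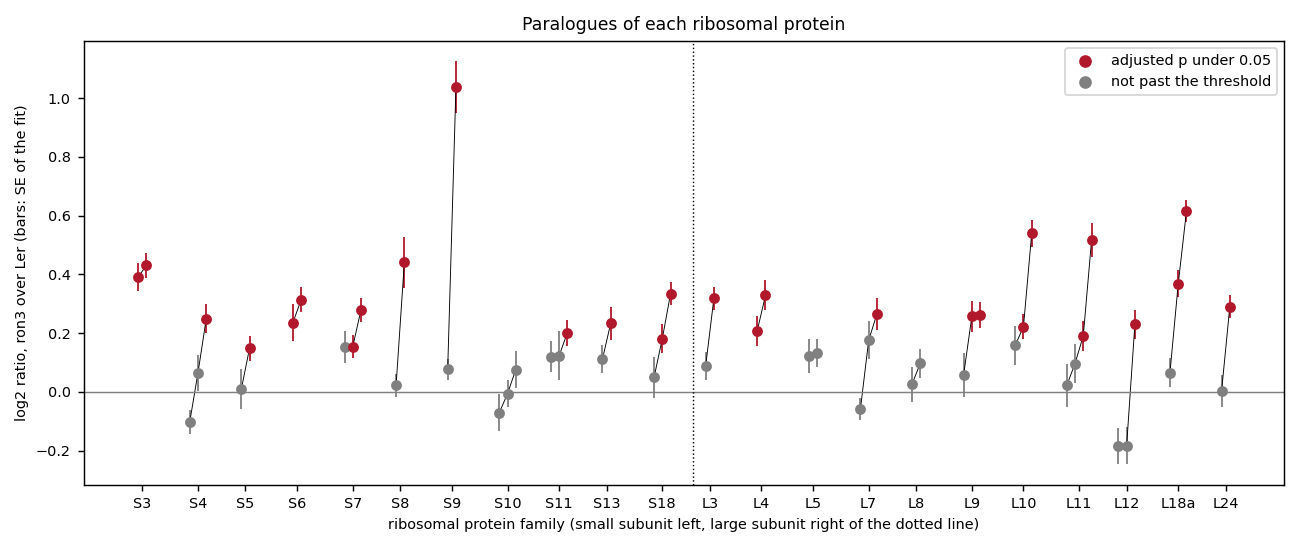
Fitted log2 ratios of ron3 over Ler (vertical axis) of the tested members of each ribosomal protein family are joined by lines, with bars for the standard error of the fit. Red points passed an adjusted p of 0.05 and grey points did not. S9 and L18a span the widest ranges, and the L12 family holds the lowest points.

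The dye orientation moved with the ratios. Of the 56 genes, 48 had a higher ratio on arrays a and c, with ron3 in Cy5, than on arrays b and d, as had 10405 of all 19246 genes. The median of the mean ratio was 0.25 on arrays a and c and 0.08 on arrays b and d, beside 0.03 and 0.01 over all genes. A mean above 0 was found for 49 genes in the first orientation, for 39 in the second and for 36 in both. The dye effect had an unadjusted p under 0.05 for 16 of the genes (28.6%), beside 11.5% of all genes tested (limma). The model estimates this effect apart from genotype. Of the 28 called genes, 26 had a mean above 0 in both orientations, the exceptions being SAC52 and the S7 gene AT5G16130, whose mean on arrays b and d was −0.12. A ratio above 0 on all 4 arrays was found for 23 genes, 41.1% of those tested, beside 38.8% of all genes. A ratio below 0 on all 4 arrays was found for 1 (AT5G07090, an S4 gene), beside 35.4% of all genes.

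**Figure D3:**
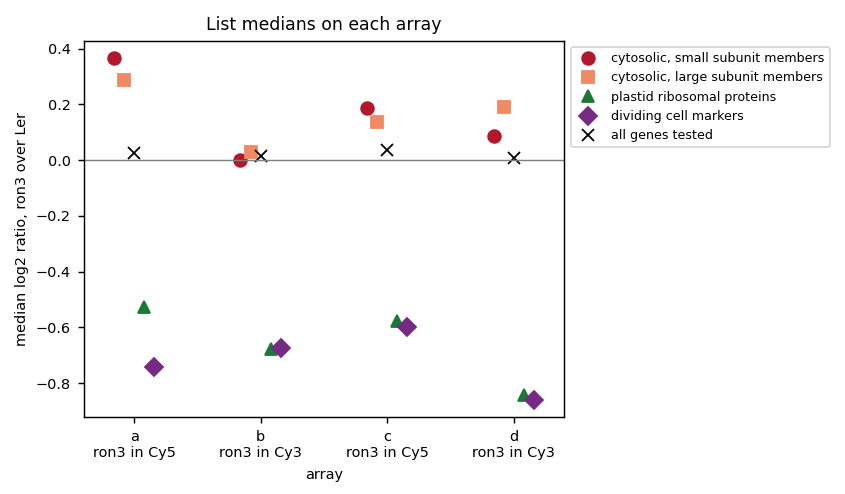
The median log2 ratio of ron3 over Ler (vertical axis) is shown on each array (horizontal axis, with the dye of ron3) for the small and large subunit members, the plastid ribosomal protein genes, the dividing cell markers and all genes tested. The cytosolic medians are highest on array a, at 0.37 and 0.29, and nearest 0 on array b, where the small subunit median is −0.0016, while the plastid and dividing cell medians lie between −0.53 and −0.86.

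Other cytosolic ribosomal protein genes also had few falls, and their share of rises was not far from that of all genes. Of 59 further small subunit genes tested, 27 were higher in ron3 (45.8%) and 2 lower, with a median of 0.15. Of 94 further large subunit genes 34 were higher (36.2%) and 7 lower, with a median of 0.09, beside 37.0% of all genes higher and 32.8% lower. Without array a the counts of rises were 12 and 14, both smaller shares than the 27.8% of all genes in that fit. The 7 falls became 3 without array a, 2 without array c, 4 without array d and 3 with median centring. The genes with the smallest p in the small subunit list were AT1G23410, which encodes a ubiquitin fused to a ribosomal protein and had a log2 ratio of −0.73 ± 0.28 (SD, n = 4), and rps15ab (AT2G19720), with −0.40 ± 0.03. Both were lower on all 4 arrays. AT2G21580 rose by 0.48 ± 0.12. In the large subunit list emb2386 (AT1G02780) rose by 0.44 ± 0.33, AT3G59540 by 0.35 ± 0.26 and AT1G01100, a stalk protein gene, by 0.34 ± 0.19 (SD, n = 4 each). PGY1 (AT2G27530), singled out after its value was seen because it shares its mutant phenotype with PGY2 and PGY3, fell by 0.28 on the log2 scale (limma adjusted p = 0.0133).

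Ribosome assembly factors, which process ribosomal RNA and build the subunits in the nucleolus, rarely passed the test in the fit with all arrays. Of 29 genes, 3 were higher and 2 lower in ron3, so that 17.2% changed, beside 69.8% of all genes. The median of 0.15 equalled that of the small subunit members to 2 decimals. Their array medians were 0.24, −0.14, 0.06 and 0.35. The count of rises was 0 without array a, beside 27.8% of all genes higher. It was 18 of 29 without array b, a larger share than the 36.6% of all genes in that fit. It was 1 without array c and 1 without array d, beside 27.2% and 35.9% of all genes. Array b was thus the low one in this list. EDA25 (AT1G72440), a nucleolar protein of female gametophyte growth, had a log2 ratio of −0.31 ± 0.12 (SD, n = 4; limma adjusted p = 0.0091), and AT3G11964 had −0.33 ± 0.19 (limma adjusted p = 0.0245). eIF6A (AT3G55620), which keeps the large subunit from joining the small one too early, rose by 0.53 ± 0.27 (SD, n = 4; limma adjusted p = 0.0127).

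Most translation factors were higher in ron3. Of 20 genes, 12 were higher and 3 lower, beside 37.0% and 32.8% of all genes, with a median of 0.25. ELF5A-3 (AT1G69410), a factor that helps ribosomes past difficult peptide bonds, rose by 0.72 ± 0.15 (SD, n = 4; limma adjusted p = 0.000409). AT1G07920 and AT5G60390 encode the elongation factor that brings aminoacyl-tRNA to the ribosome, and rose by 0.83 ± 0.44 and 0.51 ± 0.38 (SD, n = 4; limma adjusted p = 0.000473 and 0.000572). These genes are near-identical copies, so their ratios are uncertain as separate measurements, as is the count of 12 that holds them. The 3 genes that fell, named after their values were seen, all encode poly(A)-binding proteins, which bind the tails of messenger RNAs. They were PAB4 (−0.57 ± 0.18), PAB8 (−0.28 ± 0.22) and PAB2 (−0.24 ± 0.05; SD, n = 4 each).

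Among 7 genes tested of TOR and the S6 kinases, which couple nutrients and growth to ribosome production, 2 were higher (28.6%, beside 37.0% of all genes) and 0 lower, the same counts as at an unadjusted p under 0.05 (limma). S6K2 (AT3G08720) had log2 ratios of 2.44, 2.02, 2.32 and 2.31 on arrays a to d. All arrays agreed closely, and the fitted rise was 2.27 ± 0.18 (SD, n = 4; limma adjusted p = 0.00018). The other S6 kinase gene, PK1 (AT3G08730), rose by 0.44 ± 0.13 (SD, n = 4; limma adjusted p = 0.00313). These kinase genes are close paralogues, and a probe may detect both. TOR itself had a log2 ratio of −0.04 ± 0.05 (SD, n = 4; limma adjusted p = 0.316). Of the 3 genes of RACK1, a scaffold on the small subunit, ATARCA rose by 0.22 ± 0.09 and RACK1C_AT by 0.27 ± 0.17 (SD, n = 4; limma adjusted p = 0.0146 and 0.0294). RACK1B_AT had a ratio of 0.00 ± 0.13. The number of RACK1 rises was 2 in the fit with all arrays, beside 37.0% of all genes higher. It was 0 without array a, 0 without array c and 1 without array d, beside 27.8%, 27.2% and 35.9% of all genes.

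Plastid ribosomal proteins went the opposite way. Of 37 nuclear genes for them, 36 were lower in ron3 and 0 higher (limma; also 36 and 0 at an unadjusted p under 0.05), beside 32.8% of all genes lower, with a median log2 ratio of −0.64. Array medians were −0.53, −0.68, −0.58 and −0.84. The count of falls was 36 in every fit that left out an array. RPL24 (AT5G54600), a plastid protein despite its name, had log2 ratios of −0.75, −0.78, −0.73 and −0.91 and a fitted value of −0.79 ± 0.08 (SD, n = 4; limma adjusted p = 0.000362). The fitted value of AT3G54210 was −0.72 ± 0.12 (SD, n = 4). The only gene of the list that did not pass was RPS1 (AT5G30510), with −0.02 ± 0.09 (SD, n = 4; limma adjusted p = 0.769).

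**Figure D4:**
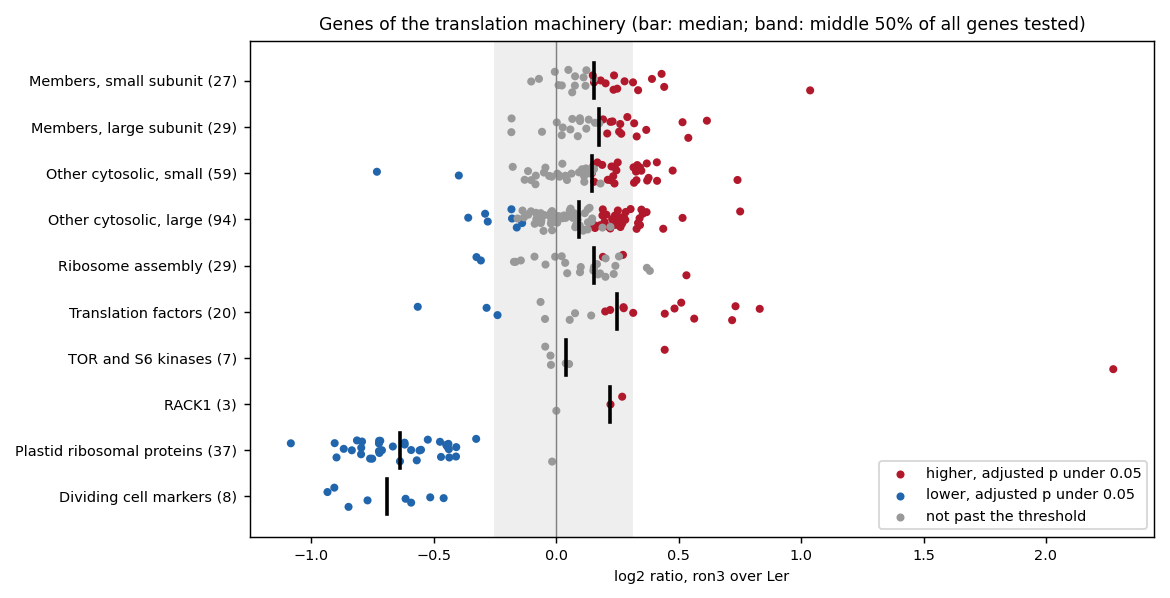
Each point is a gene of the cytosolic ribosome, of its assembly, of translation, of the plastid ribosome or of the dividing cell markers, placed by its fitted log2 ratio of ron3 over Ler (horizontal axis). Red points were higher and blue points lower at an adjusted p of 0.05. Black bars are list medians and the grey band is the middle 50% of all genes tested, from −0.25 to 0.31. The cytosolic lists centre between 0.09 and 0.18, S6K2 stands alone at 2.27, and the plastid list centres at −0.64.

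Markers of dividing cells and of roots also differed between the genotypes. All 8 dividing cell markers were lower in ron3 (limma, adjusted p under 0.05), beside 32.8% of all genes. Their median log2 ratio was −0.69, with array medians of −0.74, −0.68, −0.60 and −0.86. The markers included CDC20.1 (−0.93 ± 0.10), CYCB1;3 (−0.91 ± 0.13) and PCNA1 (−0.59 ± 0.19; SD, n = 4 each). Of 7 root markers tested, 6 were higher, beside 37.0% of all genes, with array medians of 0.49, 0.56, 0.68 and 0.13. The count was 3 without array a and 4 without array c, beside 27.8% and 27.2% of all genes higher in those fits. The iron transporter IRT1 rose by 1.43 ± 0.51 and CASP1 by 0.72 ± 0.31 (SD, n = 4 each). The root hair genes EXPA7 and RHD6 were well above background on 0 Ler arrays, so they passed the filter only through ron3, the genotype where they are higher, yet they are among the 6. With a filter that asks for signal in both channels on all arrays, 2 root markers were tested and 1 was higher. The root medians, over 7 genes, were highest on array c and lowest on array d. The part of either marker group in the ribosomal protein ratios was not tested.

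**Figure D5:**
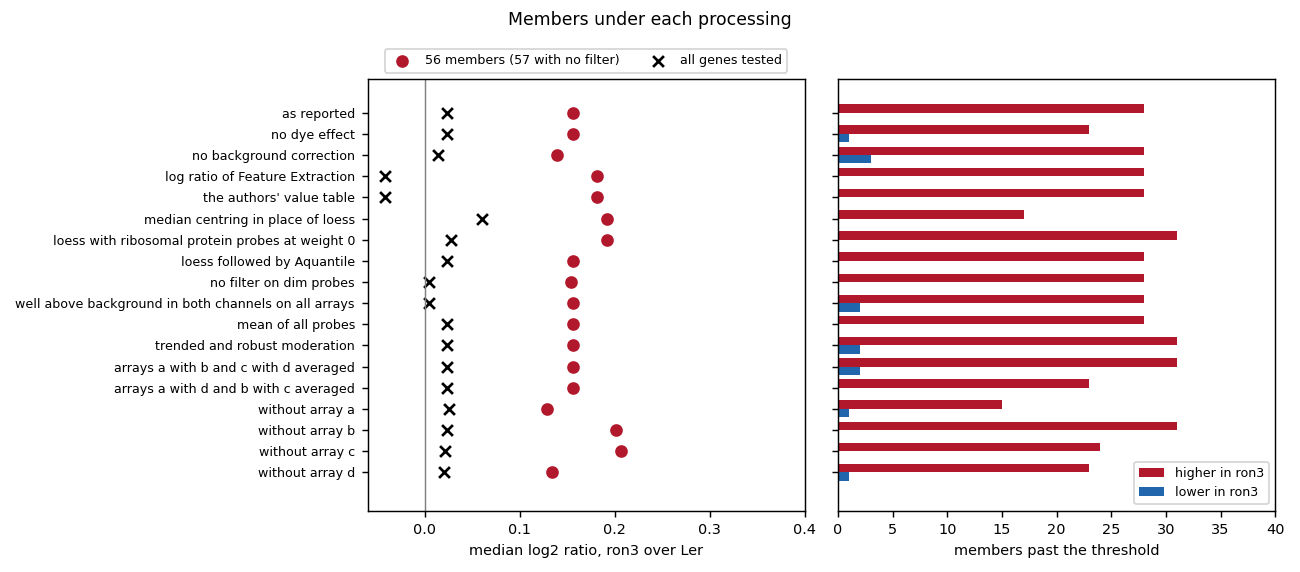
The left panel shows the median log2 ratio of ron3 over Ler of the cytosolic ribosomal protein genes and of all genes tested under the reported processing and 17 alternatives, and the right panel shows how many of these genes passed the threshold in each direction. The gene medians lie between 0.13 and 0.21 in all settings, above those of all genes, while the count of rises runs from 15 without array a to 31.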

How the data were processed

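Per the labels, each array paired ron3 and Ler shoot apex RNA, amplified and labelled by in vitro transcription. Per the file headers, Agilent Feature Extraction 10.1.1.1 quantified the spots, and all 4 arrays lay on the same slide. The deposited spot, background and processed signals are intensity values. Cy5 over Cy3 of the processed signals is also deposited as a log10 ratio, and the deposited flags, of another kind (other), are 0 or 1. The authors' value table gives log2 ratios of those signals, turned to ron3 over Ler and not centred, with array medians of −0.01, −0.12, 0.01 and −0.17 on arrays a to d.

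Median signals were corrected with normexp (offset 50) and loess within arrays in limma 3.58.1 (R 4.3.3). A probe was used if 2 or more arrays showed it well above background in 1 of the genotypes and 3 or more had it unflagged. The brightest probe stood for its gene. A model with a dye effect (2 residual and 2.45 prior degrees of freedom) was fitted to 19246 genes, with two-sided tests at 0.05 after Benjamini-Hochberg adjustment. The script was tested on simulated data.

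The loci and lists were chosen with earlier results of these data known, and protein families and roles come from general knowledge. The reference (TAIR10.1, from RefSeq, used for names) held all 57 loci and gave 24 a symbol. Of 287 list loci, 2 were left out because the reference describes them otherwise. Array values are given for the 3 largest rises per subunit, the family with the largest paralogue difference in each, and 14 genes of known mutants or signalling, to which others were added where the text turns on them. From each other list, up to 3 genes of smallest p past the threshold are named. Some genes that this rule names are not reported here.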

Additional observations from a re-analysis of the deposited data

Results flagged for a closer look

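For 2 of the 56 genes a single array stood apart from the other 3 by Dixon's criterion, which chance alone meets in about 1 of 20 groups. The S3 gene AT5G35530 had a log2 ratio of 0.25 on array b, below the 0.43 to 0.44 of the other arrays. The S8 gene AT5G59240 had a log2 ratio of 0.79 on array a, above the 0.29 to 0.35 of the others.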

How the results depend on the processing

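All 28 genes called higher kept a ratio above 0 under all 17 alternatives. Several of these, such as leaving out the dye effect, trended moderation and averaging arrays, leave the ratio as it was and could not change its sign. Feature Extraction's log ratio and the authors' table hold nearly the same values, so the alternatives are not independent. Of the 28 genes, 13 passed under every alternative, namely the S3, S6 (RPS6), S7 (AT1G48830), S9 (AT5G39850), S18 (RPS18C), L3 (RP1), L4 (AT3G09630), L10 (SAG24), L11 (AT5G45775), L18a (RPL18AA and AT3G14600) and L24 (STV1) genes. The count of rises was 17 of 56 with median centring and 15 without array a. Both were smaller shares than those of all genes, 35.8% and 27.8%. Leaving out 1 array gave 15 to 31 rises and 0 to 1 falls, beside 27.2% to 36.6% of all genes higher and 24.4% to 32.3% lower. The median was then 0.13 to 0.21, with 0.12 to 0.20 for the small and 0.12 to 0.23 for the large subunit, a subunit difference of −0.06 to 0.02. Pairs in the same order numbered 28 to 32. A pair in the same order on all 4 arrays keeps it when 1 is left out, so this count could not fall below 27. The count of falls was 1 without the dye effect (beside 31.7% of all genes) and 3 without background correction (33.6%). It was 2 with the stricter filter (35.6%), with trended moderation (34.8%) and with arrays a and b and arrays c and d averaged (32.7%). The last gave 43 pairs in the same order, but over 2 averaged values in place of 4 arrays, a condition that is easier to meet. Ratios near 0 changed sign in genes that did not pass. Without background correction, RPS5B (AT2G37270) had −0.0011, AT5G20290 −3.87e-05 and RPL24A (AT2G36620) −0.010. With Feature Extraction's log ratio and with the authors' table alike, RPS5B had −0.0072, RPL24A −0.037 and AT2G01250 0.068. RPS10B (AT5G41520) had 0.035 with median centring and 0.018 with ribosomal protein probes at weight 0 in the loess, where AT2G01250 had 0.0090. Leaving out 1 array gave −0.053 to 0.072 for AT2G37270, −0.028 to 0.13 for AT1G34030, −0.030 to 0.083 for AT4G36130, −0.021 to 0.14 for AT4G10450, −0.052 to 0.096 for AT3G58700, −0.044 to 0.049 for AT2G36620, −0.15 to 0.0043 for AT4G25740 and −0.046 to 0.034 for AT5G41520. The cause was not tested. Counts of the other lists under the alternatives were added after seeing the data. The assembly factor rises ran from 0 to 18, the root marker rises from 1 to 6, and the plastid falls were 36 in each. No paired analysis was possible because the 4 arrays form 1 group of direct ratios, with no other group to pair by replicate letter. Averaging arrays as presumed dye swaps is a different step. With a and d and with b and c averaged it gave 23 rises and 0 falls, beside 34.0% and 29.8% of all genes. Signal over background did not limit the 56 genes tested, while AT3G51190 could not be measured.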
